A study of Mus musculus with 3 samples.

Results

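The genes described here are 10 genes of the smooth muscle and contractile program, namely *Acta2*, *Tagln*, *Cnn1*, *Cnn2*, *Myl9*, *Tpm1*, *Tpm2*, *Cald1*, *Actg2* and *Srf*. They were chosen by name, with earlier results of these data known. The array read all 10 of them with 17 probes, among 22911 named genes with 32989 probes. Colon26 is a murine colon adenocarcinoma line from a female BALB/c mouse, LuM1 is its high-metastatic subline and NM11 its low-metastatic subline. All of them were untreated cells kept for 3 days in serum-containing medium on plastic, and 0.1 µg of total RNA from each was labelled with Cy3 and hybridized to 1 array per cell line. The question was how the expression signature of LuM1 cells differed from that of NM11 cells and of the parental Colon26 cells. With 1 array per line there is no replicate check and no test could be run, which limits the precision of every value. The errors given after ± are those that the scanner software estimated for each spot and describe technical error only.

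Smooth muscle cells contract when myosin pulls on actin filaments, and the actins *Acta2* and *Actg2* build those filaments. Tropomyosins (*Tpm1*, *Tpm2*), caldesmon (*Cald1*), calponins (*Cnn1*, *Cnn2*) and transgelin (*Tagln*, also called SM22) lie along them, whereas *Myl9* encodes a regulatory light chain of myosin. Most of these genes are known targets of serum response factor (*Srf*), which binds a DNA element called the CArG box together with cofactors of the myocardin family or of the ternary complex family (the ELK proteins). Several members, such as *Tpm1* and *Cald1*, are also transcribed in fibroblasts and in many cultured cells, where they belong to stress fibers.

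The promoters of these genes are shown first, because the CArG box is the feature that the members are known for. The box was searched by its letters, CC, then 6 bases that are each A or T, then GG, a pattern that reads the same on both strands. RefSeq promoter windows on GRCm38.p6, from 250 bases before to 50 bases after a gene's start, existed for 8 of the 10 members (9 windows), and *Tagln* and *Actg2* had none. An exact box stood in the windows of 3 members, *Srf*, *Cnn2* and *Myl9*, whereas 1.63% of all 32851 windows held one. With up to 1 mismatch the share of all windows was 21.1%, and *Acta2*, *Tpm1* and *Cald1* joined the members with a match. The windows of *Cnn1* and *Tpm2* held none. *Acta2* and *Tpm1* each held 2 matches with 1 mismatch, and the one farther from the start is shown. The match of *Cald1* and the further 1-mismatch matches of *Srf* and *Myl9* are not shown. In the following stretches of 30 bases, written 5′ to 3′ along the gene's own strand, capitals mark the box or match.
Srf, minus strand, chr17:46556225-46556254, exact: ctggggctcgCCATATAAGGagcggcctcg
Srf, minus strand, chr17:46556205-46556234, exact: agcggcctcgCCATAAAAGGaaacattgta
Cnn2, plus strand, chr10:79988534-79988563, exact: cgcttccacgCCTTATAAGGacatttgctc
Myl9, plus strand, chr2:156775293-156775322, exact: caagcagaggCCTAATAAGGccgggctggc
Acta2, minus strand, chr19:34255438-34255467, 1 mismatch: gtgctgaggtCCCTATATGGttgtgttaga
Tpm1, minus strand, chr9:67049415-67049444, 1 mismatch: gctcgggtccCCATATATAGtcatatccac

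The stretches begin their boxes 82 and 62 bases before the start of *Srf*, 56 bases before that of *Cnn2*, 161 before that of *Myl9*, 84 before that of *Acta2* and 221 before that of *Tpm1*. The regions upstream of *Cnn2* and *Tpm2* are shown in full because both genes had lower signals in LuM1 cells, described further on, while their boxes differed. The former (250 bases, 68.4% GC) held the exact box in capitals, and the latter (221 bases, 69.7% GC) held no box even with 1 mismatch. A match to these letters is a description of the sequence and not evidence of binding.
Cnn2, plus strand, chr10:79988350-79988599: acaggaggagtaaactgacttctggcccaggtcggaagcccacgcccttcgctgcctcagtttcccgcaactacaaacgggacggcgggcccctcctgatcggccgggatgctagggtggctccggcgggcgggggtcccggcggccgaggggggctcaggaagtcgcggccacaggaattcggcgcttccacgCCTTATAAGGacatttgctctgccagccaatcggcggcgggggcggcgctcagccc
Tpm2, minus strand, chr4:43523584-43523804: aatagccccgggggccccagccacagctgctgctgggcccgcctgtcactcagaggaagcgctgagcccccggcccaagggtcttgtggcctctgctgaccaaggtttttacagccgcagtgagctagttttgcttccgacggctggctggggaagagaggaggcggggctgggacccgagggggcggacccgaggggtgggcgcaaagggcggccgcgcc

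In the measurements, 13 of the 17 probes exceeded the scanner software's limit for a signal well above background on every array, and 3 probes, both of *Cnn1* and 1 of *Acta2*, on none. All signals were scaled so that the 75th percentile of each array became 585.1, from 581.1 on the Colon26, 625.1 on the LuM1 and 551.5 on the NM11 array. The share of probes well above background ranged from 49.9% to 53.8%, and no spot was saturated. The brightest probe stands for a gene unless another is named, and levels are compared only within a probe. A difference is given as a log2 ratio, and a gene was counted as lower or higher from 2-fold on. In bulk RNA, fewer cells of a type and less RNA per cell cannot be told apart.

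The members *Cnn2*, *Tpm1* and *Tpm2*, were lower in LuM1 cells than in Colon26 cells and in NM11 cells, whereas the smooth muscle actins, *Tagln* and *Srf* differed by less than 2-fold between any pair of lines on their brightest probes. *Myl9* was well above background in Colon26 cells only, and *Cnn1* in none of the lines. Against Colon26 cells, 4 of the 9 members with a value were lower in LuM1 cells (*Cnn2*, *Myl9*, *Tpm1* and *Tpm2*) and none was higher, where 11.8% of all genes with a value were lower and 13.1% higher. Against NM11 cells, 3 of 8 were lower and none was higher, beside 8.5% of all genes lower and 11.1% higher. Counted over both comparisons, 3 of 8 members were lower in LuM1 cells each time, beside 4.34% of all genes with a value in both. Both comparisons share the LuM1 array, and the members were chosen with earlier results of these data known.

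The median log2 ratio of the members was -0.27 for LuM1 over Colon26 (-0.46 with the bound of *Myl9* included), beside -0.13 over all genes. For LuM1 over NM11 it was -0.43, beside -0.11 over all genes. All 8 members lay below 0 there, as did 7319 of 12851 genes, and *Actg2* lay within the error (log2 -0.07 ± 0.20). In NM11 over Colon26, the low-metastatic subline against the parental line, the median was 0.20 beside -0.02. There 7 of the 8 ratios lay above 0, as did 5991 of 12471 genes. In that comparison 1 of 9 members, *Myl9*, was lower (7.89% of all genes) and none was higher (8.34% of all genes). Scaling to *Hprt* turned the median of LuM1 over NM11 to 0.15, with *Acta2*, *Tagln*, *Cald1*, *Actg2* and *Srf* above 0. The same scaling turned that of NM11 over Colon26 to -0.29, with only *Cald1* above 0. The authors' processed values turned the median of LuM1 over Colon26 to 0.18.

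**Figure D1:**
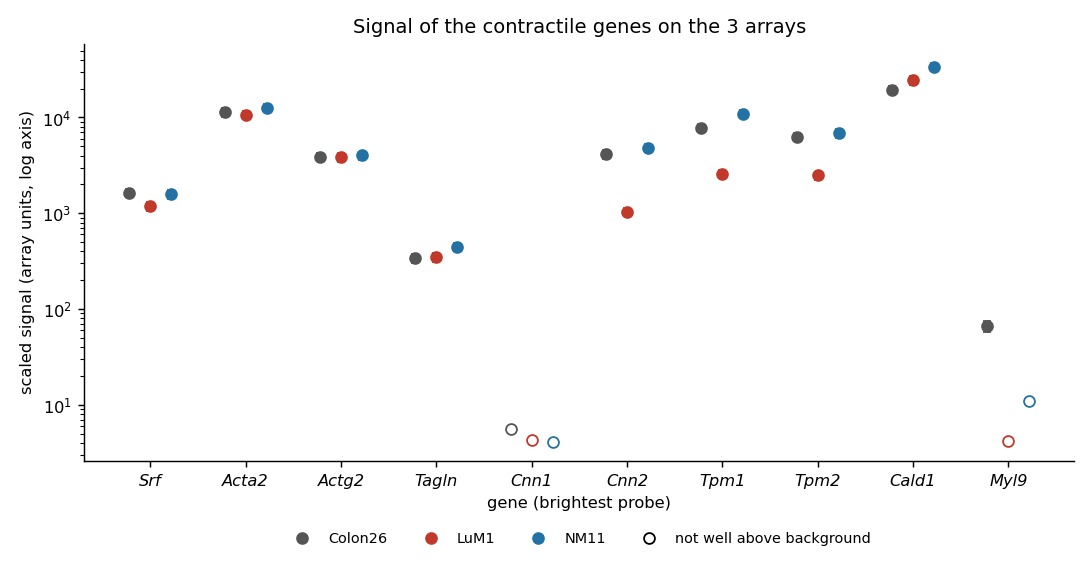
Scaled signal (log axis, array units) of the brightest probe of each gene on the Colon26, LuM1 and NM11 arrays; bars are the scanner error, mostly smaller than the points, and open points were not well above background. The LuM1 point lies clearly under both others for Cnn2 (1031), Tpm1 (2585) and Tpm2 (2477), and all points of Cnn1 are open.

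*Cnn2* encodes the calponin of smooth muscle and of many non-muscle cells, which binds actin filaments. Its probe (A_51_P427663, RefSeq NM_007725) gave 4115 ± 412 in Colon26 cells, 1031 ± 103 in LuM1 cells and 4852 ± 485 in NM11 cells. LuM1 cells had a 3.99-fold lower *Cnn2* level than Colon26 cells (log2 -2.00 ± 0.20). It was 4.71-fold lower than in NM11 cells (log2 -2.24 ± 0.20). The *Cnn2* levels of NM11 and Colon26 cells differed by 0.24 ± 0.20 (log2), hardly more than the error. Only 1.94% of the 12397 genes with a ratio lay at or below *Cnn2* in LuM1 over Colon26, and 1.32% of 12851 in LuM1 over NM11. *Cnn2* stayed more than 2-fold lower in both comparisons under all 12 other settings that gave a ratio, down to -1.55 and -1.65. Several of these settings change only the limit for dim signals or the choice of probe. They could not alter *Cnn2*, which has 1 bright probe.

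The tropomyosins, coiled proteins that lie in the groove of the actin filament and control access of myosin, were also lowest in LuM1 cells on their brightest probes. The brightest *Tpm1* probe (A_66_P105457, NM_001164248) gave 7769 ± 777 in Colon26 cells, 2585 ± 259 in LuM1 cells and 10845 ± 1085 in NM11 cells. LuM1 cells were 3.01-fold under Colon26 cells (log2 -1.59 ± 0.20) and 4.20-fold under NM11 cells (log2 -2.07 ± 0.20). NM11 cells had the highest *Tpm1* level, 1.40-fold above Colon26 cells (log2 0.48 ± 0.20), an order that vanished with scaling to *Hprt* (log2 -0.01). The brightest *Tpm2* probe (A_55_P2121408, NM_001277875) gave 6295 ± 629.6, 2477 ± 248 and 6830.4 ± 683 in the same order of lines. Its level in LuM1 cells was 2.54-fold lower than in Colon26 cells (log2 -1.35 ± 0.20) and 2.76-fold lower than in NM11 cells (log2 -1.46 ± 0.20), whereas Colon26 and NM11 cells differed by less than the error (log2 0.12). The LuM1 ratios of *Tpm1* stayed past 2-fold under all 12 other settings. Among these, changed limits for dim signals and the use of another *Acta2* probe could not alter *Tpm1*. The *Tpm2* ratio over Colon26 came to -0.90 with the authors' processed values and to -0.98 as the mean over probes, and that over NM11 to -0.87 with scaling to *Hprt*, all short of 2-fold.

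*Tpm1* makes many isoforms by alternative promoters and splicing, and its probes did not move together. A probe assigned to NM_001164251 (A_55_P2078680) gave 536 ± 53.9, 148 ± 15.5 and 616 ± 61.8 in Colon26, LuM1 and NM11 cells, so that LuM1 cells were 3.61-fold under Colon26 cells (log2 -1.85 ± 0.21). The remaining *Tpm1* probe, assigned to NM_001164255 (A_55_P2187053), gave 838 ± 84.0, 667 ± 66.9 and 828 ± 82.9, a log2 ratio of only -0.33 ± 0.20 for LuM1 over Colon26 and -0.31 ± 0.20 over NM11. Of the 3 *Tpm1* probes, 2 therefore read a level more than 2-fold lower in LuM1 cells and 1 did not. The dimmer *Tpm2* probe (A_51_P357013, NM_009416) gave 165 ± 17.4, 107 ± 11.5 and 186 ± 19.0, also lowest in LuM1 cells, with log2 ratios of -0.62 ± 0.22 over Colon26 and -0.79 ± 0.21 over NM11 that did not reach 2-fold.

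**Figure D2:**
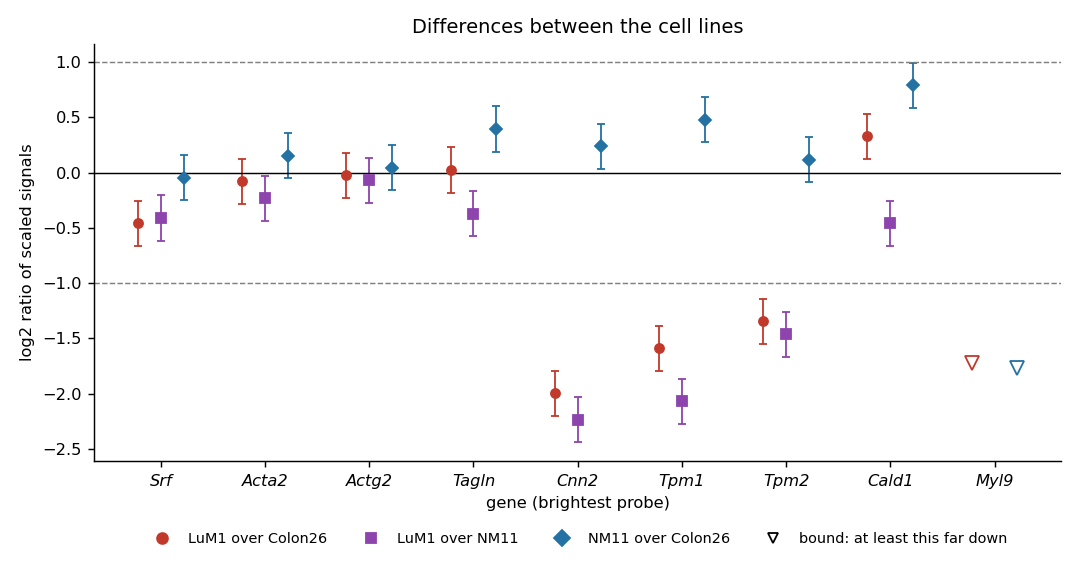
Log2 ratios of the scaled signals between the cell lines for the brightest probe of each gene; bars are the scanner error, dashed lines mark 2-fold, and open triangles are bounds for Myl9. Cnn2, Tpm1 and Tpm2 lie past the lower line in LuM1 over Colon26 and over NM11; the smaller ratios can change sign with the scaling, as for Acta2 and Actg2.

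The actins of smooth muscle differed little on their brightest probes. *Actg2*, the enteric smooth muscle actin, gave 3888 ± 389 in Colon26 cells, 3823 ± 382 in LuM1 cells and 4007 ± 401 in NM11 cells (A_51_P241269, NM_009610), and none of its log2 ratios (-0.02, -0.07 and 0.04) exceeded the error of 0.20. *Acta2*, the actin of vascular smooth muscle and of myofibroblasts, gave 11294 ± 1129, 10708 ± 1071 and 12569 ± 1257 on its brightest probe (A_51_P450957, NM_007392). This *Acta2* probe was about as bright on each array, with log2 ratios of -0.08 for LuM1 over Colon26, -0.23 for LuM1 over NM11 and 0.15 for NM11 over Colon26 (error 0.20 each). The signs of the LuM1 ratios of *Acta2* and *Actg2* turned positive with the authors' processed values and with scaling to *Hprt*.

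A different *Acta2* probe assigned to the same transcript (A_52_P420504, NM_007392) gave another picture, 48.6 ± 7.32 in Colon26 cells, 1766 ± 177 in LuM1 cells and 1641 ± 164 in NM11 cells. On this probe LuM1 cells were 36.3-fold above Colon26 cells (log2 5.18 ± 0.26) and NM11 cells 33.8-fold above them (log2 5.08 ± 0.26), whereas LuM1 and NM11 cells differed by less than the error (log2 0.11 ± 0.20). With this probe, *Acta2* was the only member past 2-fold with LuM1 cells above Colon26 cells. The third probe (A_52_P210078) gave 5.72, 5.84 and 9.01 and was not well above background on any array. Which of the *Acta2* probes follows the mRNA level was not tested, so no direction can be given for *Acta2* in LuM1 or NM11 against Colon26 cells.

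Among markers of fibroblasts, *Dcn*, *Thy1* and *Pdgfra* were lowest in Colon26 cells, as this *Acta2* probe was, whereas *Postn* and *Fap* were not. Of 6 such markers, 3 were well above background in Colon26 cells and 4 in each of the other lines, and their summed scaled signal was 438 in Colon26, 51139.7 in LuM1 and 26356 in NM11 cells. The sum rests mostly on the matrix protein gene *Dcn*, the surface marker gene *Thy1* and the receptor gene *Pdgfra*. *Dcn* and *Thy1* fell short of that limit in Colon26 cells (6.07 and 5.26). *Dcn* gave 27503 in LuM1 and 9599 in NM11 cells, and *Thy1* gave 19560 and 15416. *Pdgfra* gave 218 in Colon26, 3965 in LuM1 and 1286 in NM11 cells. The brightest probe of the matrix protein gene *Postn* went the opposite way and exceeded the limit in Colon26 cells alone (88.5 ± 11.8). Its other probes did so on no array. *Fap*, a surface protease gene, gave 114 ± 13.3 in Colon26, 102 ± 11.4 in LuM1 and 46.1 ± 6.60 in NM11 cells. Another *Fap* probe (A_51_P394210) differed, with 171 ± 18.0 in Colon26 cells and values short of the limit in LuM1 (4.58) and NM11 cells (9.20). *Lum* exceeded the limit in none of the lines. The part of these cells or markers in the *Acta2* values was not tested.

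**Figure D3:**
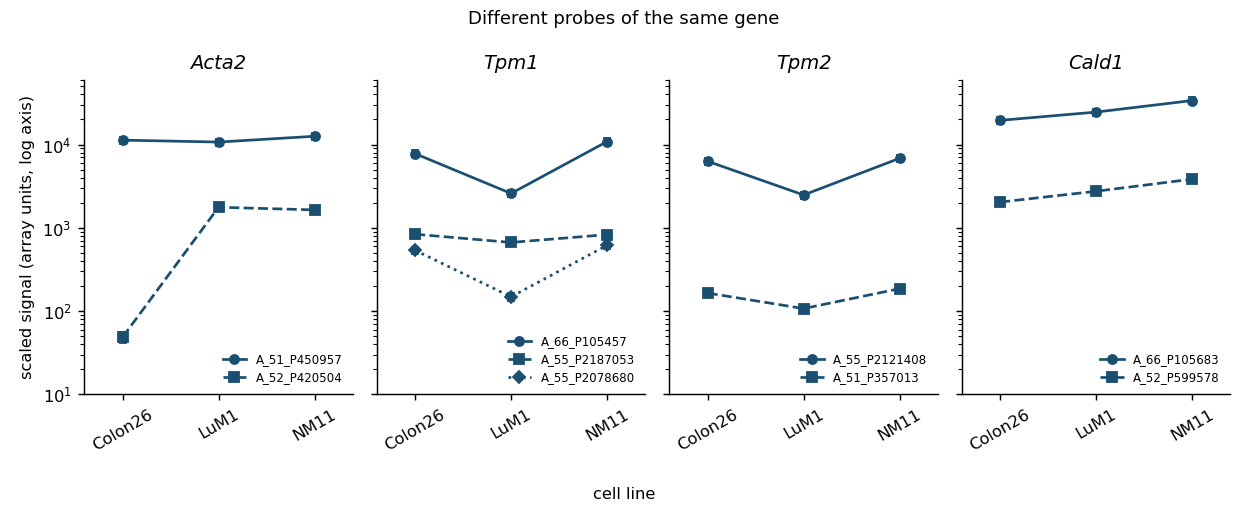
Scaled signal (log axis, array units) of each probe well above background on all 3 arrays for the members with several such probes, by cell line; bars are the scanner error. The dimmer Acta2 probe is at 48.6 in Colon26 cells against 1766 in LuM1 cells while the brighter one is nearly level, and 1 of the 3 Tpm1 probes changes little.

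*Tagln*, a calponin-related protein that bundles actin and an early marker of smooth muscle differentiation, gave 339 ± 34.5 in Colon26 cells, 345 ± 34.9 in LuM1 cells and 446 ± 44.9 in NM11 cells (A_51_P450527, NM_011526). Colon26 and LuM1 cells did not differ beyond the error (log2 0.03 ± 0.21), and NM11 cells were 1.32-fold above Colon26 cells (log2 0.40 ± 0.21). *Cald1*, whose product binds actin and tropomyosin and restrains myosin, was the member with the highest rank in NM11 over Colon26, where 90.9% of 12471 genes lay at or below it. Its brightest probe (A_66_P105683, NM_145575) gave 19510.0 ± 1951 in Colon26 cells, 24532 ± 2453 in LuM1 cells and 33726 ± 3373 in NM11 cells. *Cald1* was 1.73-fold higher in NM11 than in Colon26 cells (log2 0.79 ± 0.20), and LuM1 cells were 1.26-fold above Colon26 cells (log2 0.33 ± 0.20). *Cald1* kept these signs under all 12 other settings that gave a ratio. Changed limits for dim signals and another *Acta2* probe could not alter them. Against NM11 cells, LuM1 cells were 1.37-fold lower (log2 -0.46 ± 0.20), a sign that turned with scaling to *Hprt* (0.13). The other *Cald1* probe (A_52_P599578) gave the same order, 2036 ± 204, 2747 ± 275 and 3839 ± 384.

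*Myl9*, the light chain whose phosphorylation starts contraction, was measured above this limit only in Colon26 cells, at 66.6 ± 8.59 (A_51_P308298, NM_172118). The probe gave 4.15 ± 4.17 in LuM1 cells and 11.0 ± 4.11 in NM11 cells, neither well above background. Set against the lowest signal well above background on those arrays (20.1 and 19.6), *Myl9* in Colon26 cells stood at least 3.31-fold above LuM1 cells and at least 3.40-fold above NM11 cells, and the sublines could not be compared with each other. The bound for NM11 cells did not reach 2-fold after normexp background correction (log2 -0.76). With the looser limit of signals significantly above background, *Myl9* had a ratio for NM11 over Colon26 (log2 -2.60). The count of members lower in LuM1 than in NM11 cells was then 4. Of the 161 spots within 6 rows and columns of the *Myl9* spot, 3 (1.86%) were also well above background on the Colon26 array alone, about the share of all spots (1.89%). That count is small, and it cannot speak to a fault of the *Myl9* spot itself.

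*Cnn1*, the calponin most specific to differentiated smooth muscle, was not well above background on any array. Its probes (A_51_P350817 and A_55_P2744265, NM_009922) gave 5.55 and 5.42 in Colon26, 4.34 and 4.19 in LuM1, and 4.08 and 3.98 in NM11 cells. *Srf*, the transcription factor, was measured in all lines at 1626 ± 163 in Colon26 cells, 1185 ± 119 in LuM1 cells and 1574 ± 157 in NM11 cells (A_51_P100289, NM_020493). Its level in LuM1 cells was 1.37-fold lower than in Colon26 cells (log2 -0.46 ± 0.20) and 1.33-fold lower than in NM11 cells (log2 -0.41 ± 0.20), and 29.9% and 29.0% of genes lay at or below these ratios. The *Srf* ratios shrank to -0.01 and 0.00 with the authors' processed values, and that over NM11 turned to 0.18 with scaling to *Hprt*.

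**Figure D4:**
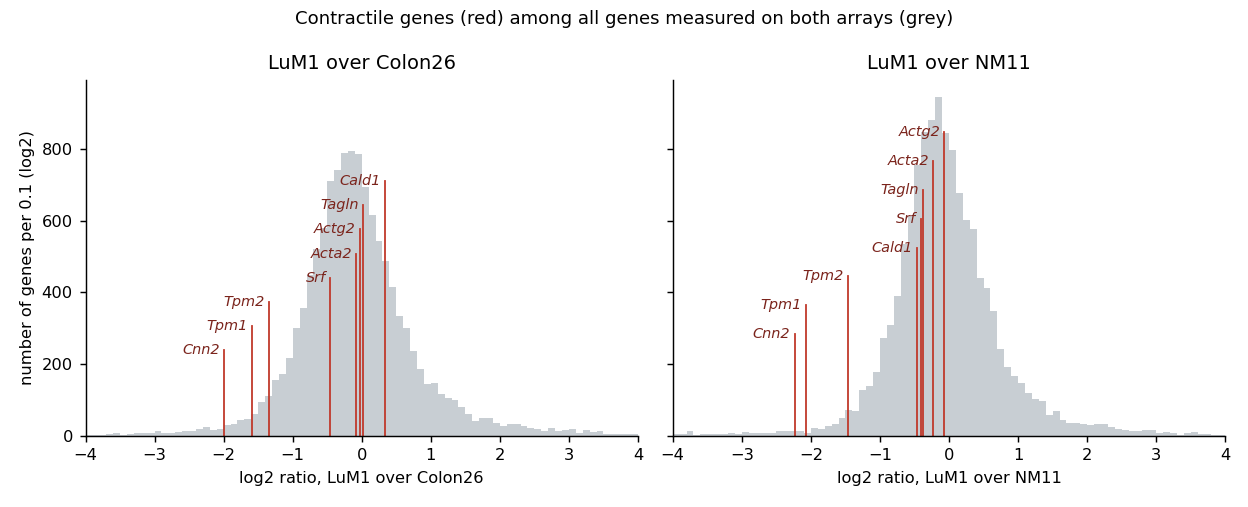
Number of genes per 0.1 of log2 ratio (grey) for LuM1 over Colon26 and LuM1 over NM11, with the ratio of each member that had one as a red line whose height has no meaning; the few ratios outside the axis are not drawn. Cnn2, Tpm1 and Tpm2 lie in the lower tail on both sides, and the remaining members lie among the bulk of the genes.

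The cofactors of SRF differed by less than 2-fold in every comparison that could be made. *Mrtfa*, which shuttles to the nucleus when free actin is used up, gave 4009 ± 401 in Colon26 cells, 3427 ± 343 in LuM1 cells and 4096 ± 409.6 in NM11 cells (log2 -0.23 for LuM1 over Colon26 and -0.26 over NM11). *Mrtfb* gave 2171 ± 217, 2404 ± 240.4 and 1761 ± 176, 1.36-fold higher in LuM1 than in NM11 cells (log2 0.45 ± 0.20). That is less than the shift of 0.59 that scaling to *Hprt* gave this comparison. Dimmer *Mrtfb* probes went both ways in it, with log2 0.75 ± 0.33 (A_52_P1067846) and -0.65 ± 0.29 (A_51_P462870). Myocardin (*Myocd*), the cofactor restricted to heart and smooth muscle, was not well above background in any line (5.95, 4.64 and 4.37). The brightest probes of the ternary complex factors *Elk1*, *Elk3* and *Elk4* had log2 ratios of LuM1 over Colon26 of -0.18, -0.46 and -0.10. The brightest *Elk1* probe (A_55_P1954986) gave a very high signal, 238249 in Colon26 cells, and whether it reads *Elk1* was not tested. The other *Elk1* probe (A_55_P2745154) gave log2 ratios of -0.38 ± 0.21 for LuM1 over Colon26 and -0.65 ± 0.21 over NM11. The median of the 5 cofactors with a value was -0.18 in both LuM1 comparisons, and in that over Colon26 it is the ratio of the bright *Elk1* probe.

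Among 15 other smooth muscle and contractile genes, some were higher and some lower in LuM1 cells. Of the 12 with a value, 2 were higher and 1 lower in LuM1 than in Colon26 cells, near the shares of all genes (13.1% higher and 11.8% lower). Over NM11 cells, 4 of 12 were higher and 3 lower, beside 11.1% and 8.5% of all genes. In NM11 over Colon26, 1 of 11 was higher (*Csrp1*) and 1 lower (*Des*), beside 8.34% and 7.89%. *Mylk*, the kinase that phosphorylates the myosin light chain, gave 671 ± 67.3 in Colon26 cells, 2366 ± 237 in LuM1 cells and 492 ± 49.4 in NM11 cells on its brightest probe (A_52_P575217). LuM1 cells were 3.53-fold above Colon26 cells (log2 1.82 ± 0.20) and 4.81-fold above NM11 cells (log2 2.27 ± 0.20). The other *Mylk* probes went the same way, with LuM1 cells 22.5-fold and 4.93-fold above Colon26 cells.

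*Ppp1r14a* encodes CPI-17, an inhibitor of the phosphatase that opposes *Mylk*. It gave 163 ± 16.9 in LuM1 cells and 32.5 ± 5.25 in NM11 cells and was not well above background in Colon26 cells (7.63), so that LuM1 cells were at least 6.19-fold above Colon26 cells and 5.03-fold above NM11 cells (log2 2.33 ± 0.28). *Csrp2*, a LIM protein of smooth muscle cells that binds the actin cytoskeleton, went the opposite way. It gave 4915 ± 492 in Colon26 cells, 827 ± 82.8 in LuM1 cells and 8619 ± 862 in NM11 cells, which put LuM1 cells 5.95-fold under Colon26 cells (log2 -2.57 ± 0.20) and 10.4-fold under NM11 cells (log2 -3.38 ± 0.20). *Csrp2* thus shared its order of lines with the brightest *Tpm1* probe, highest in NM11 and lowest in LuM1 cells.

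The remaining genes of that list past 2-fold were chosen for mention after their values were seen. The smooth muscle myosin gene *Myh11* was well above background in LuM1 cells alone (48.7 ± 6.68), at least 2.49-fold above NM11 cells. The intermediate filament gene *Des* was measured in Colon26 (64.2 ± 8.65) and LuM1 cells (58.9 ± 7.35) and not well above background in NM11 cells. The adhesion genes *Vcl* and *Actn1*, which link actin filaments to the membrane and to each other, were lower in LuM1 than in NM11 cells (log2 -1.21 and -1.05), and their ratios over Colon26 were -0.70 and -0.60.

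Of 14 non-muscle and striated relatives of the members, 12 had a value in each comparison. In LuM1 over Colon26 1 of them was higher and 1 lower, beside 13.1% and 11.8% of all genes. In LuM1 over NM11 1 was higher and none lower, beside 11.1% and 8.5%. In NM11 over Colon26 1 was higher and none lower, beside 8.34% and 7.89%. These counts rest on brightest probes. Dimmer probes of *Tagln2* (log2 1.09) and *Myl6* (-1.06) passed 2-fold in LuM1 over Colon26, and 1 of *Actg1* (-1.63) in LuM1 over NM11. Their median log2 ratios were -0.14, -0.44 and, in NM11 over Colon26, 0.24, beside -0.27, -0.43 and 0.20 for the members. Skeletal actin (*Acta1*) was not well above background in Colon26 cells (10.0) and gave 116 ± 12.4 in LuM1 and 57.8 ± 7.16 in NM11 cells, so that LuM1 cells were at least 4.38-fold above Colon26 cells and just past 2-fold above NM11 cells. The light chain gene *Myl12a* was lower in LuM1 than in Colon26 cells (log2 -1.09 ± 0.20). The non-muscle tropomyosin genes *Tpm3* and *Tpm4* and the calponin gene *Cnn3* did not reach 2-fold in any comparison.

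**Figure D5:**
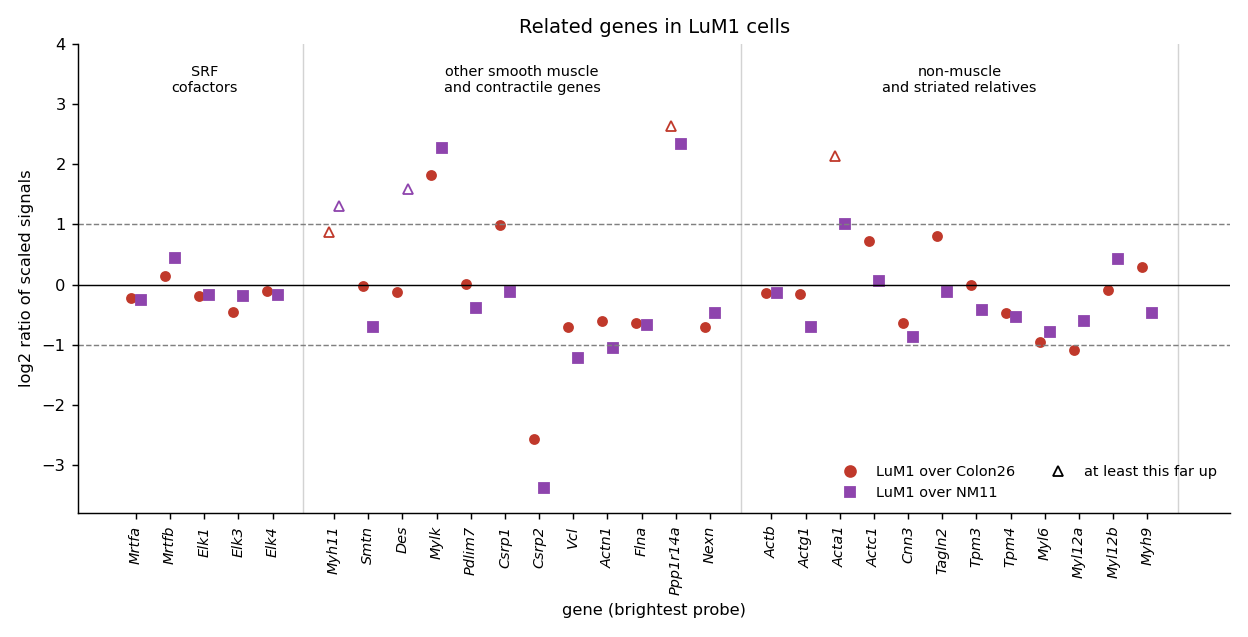
Log2 ratios of LuM1 over Colon26 and over NM11 for the genes of the related lists that had a value, brightest probe each; dashed lines mark 2-fold and open triangles are bounds. Csrp2 lies lowest at -2.57 and -3.38, Ppp1r14a lies highest, and the SRF cofactors stay between the dashed lines.

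The gene patterns most like those of the members were taken from 12241 other genes well above background on all 3 arrays, by the Euclidean distance between log2 signals relative to Colon26. The search used brightest probes, so the dimmer *Acta2* probe, with a wider range (log2 5.18) than any of them, was left out. For *Cnn2*, the member with the widest range on brightest probes, the 5 closest genes were *Csf1*, *Lpar2*, *Ccn1*, *Tmem74* and *Cth*. Their distances were 0.12, 0.13, 0.13, 0.15 and 0.19, and 6 genes lay within 0.2. *Csf1*, the macrophage colony-stimulating factor, gave 22497 in Colon26, 6067 in LuM1 and 25517 in NM11 cells. *Ccn1*, a matricellular protein gene, gave 6641, 1621 and 7161. The nearly level pattern of the brightest *Acta2* probe was common, with 996 genes within 0.2, and the 5 closest were *Sf3b2*, *Pip4p2*, *Vmn1r173*, *Dhx36* and *Gjc1*. With 3 points per gene, such likeness is a description only.

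The name of the gene group was checked against markers of the cells that such genes mark. Of 7 smooth muscle markers, 4 were well above background in Colon26, 5 in LuM1 and 3 in NM11 cells, and these markers include the members *Acta2*, *Tagln* and *Cnn1*. *Cnn1* and *Lmod1* were not well above background in any line. *Myh11* was so only in LuM1 cells (48.7 ± 6.68, brightest probe), and *Des* only in Colon26 and LuM1 cells. Of 6 pericyte markers, 3, 2 and 3 were well above background (summed signals 14862, 10977 and 15034). The sum rests mostly on *Mcam* (12164, 9975 and 13896), and *Pdgfrb* was nearly level (993, 966 and 947). *Cspg4* differed, with 1678 in Colon26 and 178 in NM11 cells, and was not well above background in LuM1 cells (22.2). Of 6 markers of skeletal and heart muscle, 2, 3 and 3 were well above background, and *Myod1*, *Myog* and *Ckm* were in none. The label of a smooth muscle program is thus met by its widely used actin and actin-binding genes. It is met by *Myh11* and *Des* at low signals in some lines only, and not by *Cnn1*, *Lmod1* or *Myocd*. No cell type is named from that label. The colon epithelium markers *Cdh1*, *Krt18* and *Vil1* were also not well above background in any line, and *Epcam* only in LuM1 cells, with 4, 5 and 4 of 8 such markers well above background and summed signals of 1346, 508 and 449. The part of such cells in the values of the members was not tested.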

How the data were processed

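Gene expression was measured in Colon26, LuM1 and NM11 cells with 1 single-colour SurePrint G3 Mouse GE array each, all on 1 slide and in 1 scan. The authors deposited intensity values per spot, background-subtracted and detrended by Agilent Feature Extraction 11.5.1.1 (submitters' processing notes), and other values, flags of 0 or 1 per spot, per the file headers. Their processed table, on the same linear scale and in the same direction, held these intensities multiplied by a constant (0.654 on the Colon26, 0.829 on the LuM1 and 0.706 on the NM11 array, uncentred, column medians 22.6, 35.4 and 22.2), and how the constants were set is not given in the sources used here.

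Control spots and outlier spots (137, 74 and 99) were left out, repeated spots were averaged, and the 75th percentile of the arrays was brought to a common value. Spots of one repeated probe varied by a median SD of 0.037, 0.041 and 0.038 (log2). The low number of arrays limits how precise any ratio is. A probe not well above background on an array entered only as a bound, set against the lowest signal well above background there, or against its own where that was higher. RefSeq accessions of GRCm38.p6 gave names to 32989 of 56599 probes (58.3%). Promoter windows came from RefSeq on that assembly. The array was designed on an older assembly, and no probe coordinates are given.

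Ratios were taken on the log2 scale in 3 comparisons, with no test. The members, 3 related lists and 5 marker lists were chosen with earlier results of these data known. A further related list is not reported here. All members were named, and from the related lists, by rule, the cofactors and genes at least 4-fold apart between any pair of lines. The related genes named short of 4-fold, and the single fibroblast and pericyte markers, were chosen after their values were seen. The 5 most similar genes were taken for *Acta2* and for the member with the widest range, both on brightest probes. The alternatives numbered 13, of which the *Acta2* probe swap was added after seeing the data. The tools were Python 3.11.15, numpy 2.4.6, pandas 2.3.3, matplotlib 3.10.9 and, for normexp (offset 50), limma 3.58.1 in R 4.3.3.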

Additional observations from a re-analysis of the deposited data

How the results depend on the processing

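No paired analysis was possible because each line had 1 array and no replicate numbers, and for the same reason no array could be left out. Against scaling to the 75th percentile, the ratios of all genes shifted with the authors' processed values by 0.45 (log2) in LuM1 over Colon26 and 0.41 in LuM1 over NM11, with scaling to *Hprt* by 0.10, 0.59 and, in NM11 over Colon26, -0.49, with no scaling by 0.11 and 0.18, and with scaling to the E1A spike-in controls by 0.22 in LuM1 over NM11 and -0.15 in NM11 over Colon26. These shifts, by construction the same for every gene, moved the median log2 ratio of the members. In LuM1 over NM11 it became 0.15 with *Hprt*, -0.22 with the E1A controls and -0.021 with the authors' values. In NM11 over Colon26 it became -0.29 with *Hprt*, and in LuM1 over Colon26 0.18 with the authors' values. At a 4-fold threshold, 0 members were lower in LuM1 or NM11 than in Colon26 cells and 2 (*Cnn2* and *Tpm1*) were lower in LuM1 than in NM11 cells. The share of all genes past 4-fold was not counted, so whether these counts are unusual cannot be said. After normexp correction, 0 members were lower in NM11 than in Colon26 cells. With the mean over probes, and with the dimmer *Acta2* probe, 1 member (*Acta2*) was higher in LuM1 and 1 (*Acta2*) in NM11 than in Colon26 cells. As the mean over probes *Acta2* came to a log2 ratio of 2.55 for LuM1 over Colon26. Of the values of single members under the alternatives, 249 moved by less than their scanner error (0.2 for the bounds of *Myl9*) and 63 by more. The 249 include values that a setting could not alter, such as those of the other members under the *Acta2* probe swap. Dim probes such as *Myl9* are limited by background, and their bounds by the lowest measured signal. Whether any difference holds in separate cultures was not tested.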
